A study of Mus musculus with 2 samples.

Results

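The interleukin-10 cluster is a group of neighbouring genes on mouse chromosome 1 that holds, in chromosomal order, Il24, Il20, Il19, Il10 and Mapkapk2. Accessible sites at these 5 genes were taken from ATAC-seq peak lists of bone marrow-derived macrophages (BMDMs). A peak was counted for a gene when the nearest end of any of 21887 protein-coding RefSeq genes, within 100 kb of the peak's summit, belonged to that gene. By this rule 16 of 114785 peaks belonged to the cluster, 7 of 77060 in the untreated list and 9 of 37725 in the R848 list. The rule used position alone and no measured value.

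Both libraries came from wild-type BMDMs grown out of mouse bone marrow with recombinant M-CSF at 20 ng/ml. ATAC-seq marks open chromatin by the insertions of the transposase Tn5, and a peak is a stretch where insertions pile up above the background. The untreated group was 1 library at 0 h. The R848 group was 1 library after 2 h with R848 at 100 ng/ml, also called resiquimod, which is a synthetic agonist of the endosomal receptor TLR7. With 1 library per group no difference can be tested, and a peak that is in 1 list without an overlap of at least 1 bp in the other is called R848-only or untreated-only below. In such bulk material, a site open in fewer cells and a site less open in every cell cannot be told apart.

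Il10 encodes the interleukin that limits inflammatory output of macrophages, and stimulated macrophages are a well-known source of it. Il19, Il20 and Il24 encode related cytokines that signal to epithelial cells such as keratinocytes through receptors containing the IL-20 receptor chains. Mapkapk2 encodes the kinase MK2, which is activated by p38 MAP kinase and controls the stability and translation of cytokine mRNAs. Conserved non-coding elements on both sides of Il10 are known to act as regulatory regions of that gene.

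The promoter that lay under a peak in both lists was that of Mapkapk2, and it is shown with that of Il19, which had no peak over it in either list. The sequences are the 250 bases before the annotated transcript start in RefSeq (GRCm38.p6), at chr1:131097844-131098093 for Mapkapk2 and chr1:130940116-130940365 for Il19, both on the minus strand. The Il19 window lies inside the Il19 gene whose ends were used for the peaks (chr1:130932656-130945457), so it belongs to an internal transcript start. Matches to the searched motifs are in capitals. The promoter table held 3 of the 5 members, and Il10 and Il24 were not among them.
Mapkapk2: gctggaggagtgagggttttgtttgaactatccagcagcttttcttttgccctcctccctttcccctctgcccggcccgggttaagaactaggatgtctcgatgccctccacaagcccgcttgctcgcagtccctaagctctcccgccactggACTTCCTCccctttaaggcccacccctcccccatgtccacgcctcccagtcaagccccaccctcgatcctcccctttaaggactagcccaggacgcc
Il19: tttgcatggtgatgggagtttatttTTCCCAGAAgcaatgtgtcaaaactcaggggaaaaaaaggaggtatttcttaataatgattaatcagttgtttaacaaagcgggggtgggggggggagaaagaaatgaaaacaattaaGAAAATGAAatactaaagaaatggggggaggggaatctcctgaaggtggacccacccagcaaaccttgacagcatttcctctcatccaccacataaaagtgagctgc

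Both strands were searched for 17 motif spellings. The Mapkapk2 window held 1 match, to the PU.1 spelling GAGGAAGT (reverse strand, ACTTCCTC), at 97 to 90 bases before the start. PU.1 is the ETS factor that defines the macrophage lineage, and 2.44% of 32851 promoter windows of the same length held this spelling. The R848 peak contained the match (chr1:131097933-131097940), with its summit 15 bp away, while the untreated peak ended just before it, at position 131097928. So short a gap does not show that the match was less open in untreated cells. The Il19 window held the STAT spelling TTCNNNGAA at 225 to 217 bases and the interferon response spelling GAAANNGAA at 107 to 99 bases before the start, which 7.02% and 7.13% of windows held. The Il20 window held none. The remaining spellings gave no match in these 3 windows. They were GGGACTTTC, GGGAATTTC, GGGGATTCC, GGGATTTCC and GGAATTCC for NF-kB, TGACTCA for AP-1, TGACGTCA and the shorter TGACG it contains for CREB, AGAGGAAG for PU.1, TTGCGCAA and the looser TTGCNNAA that covers it for C/EBP, TGCTGA for MAF, TATAAA for the TATA box and GGGCGG for Sp1. GC content was 60.4% in the Mapkapk2 window, 52.8% in that of Il20 and 42.0% in that of Il19, against a median of 52.4% over all windows.

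The listed peaks of the cluster lay in different places in the 2 lists, which describes 1 library each and was not tested. All 9 R848 peaks were assigned to Il10 or Mapkapk2, and none to Il19, Il20 or Il24. The untreated list had 1 peak each at Il24, Il20 and Il19, 2 at Il10 and 2 at Mapkapk2. In the R848 list 7 of the 9 peaks (77.8%) were R848-only, against 69.0% of all R848 peaks. In the untreated list 5 of the 7 peaks (71.4%) were untreated-only, against 84.7% of all untreated peaks. Both shares are close to those of their whole lists and are no result about the cluster. The map of summits around Il10 shows the R848 peaks beginning just past the gene and continuing beyond Mapkapk2.

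**Figure D1:**
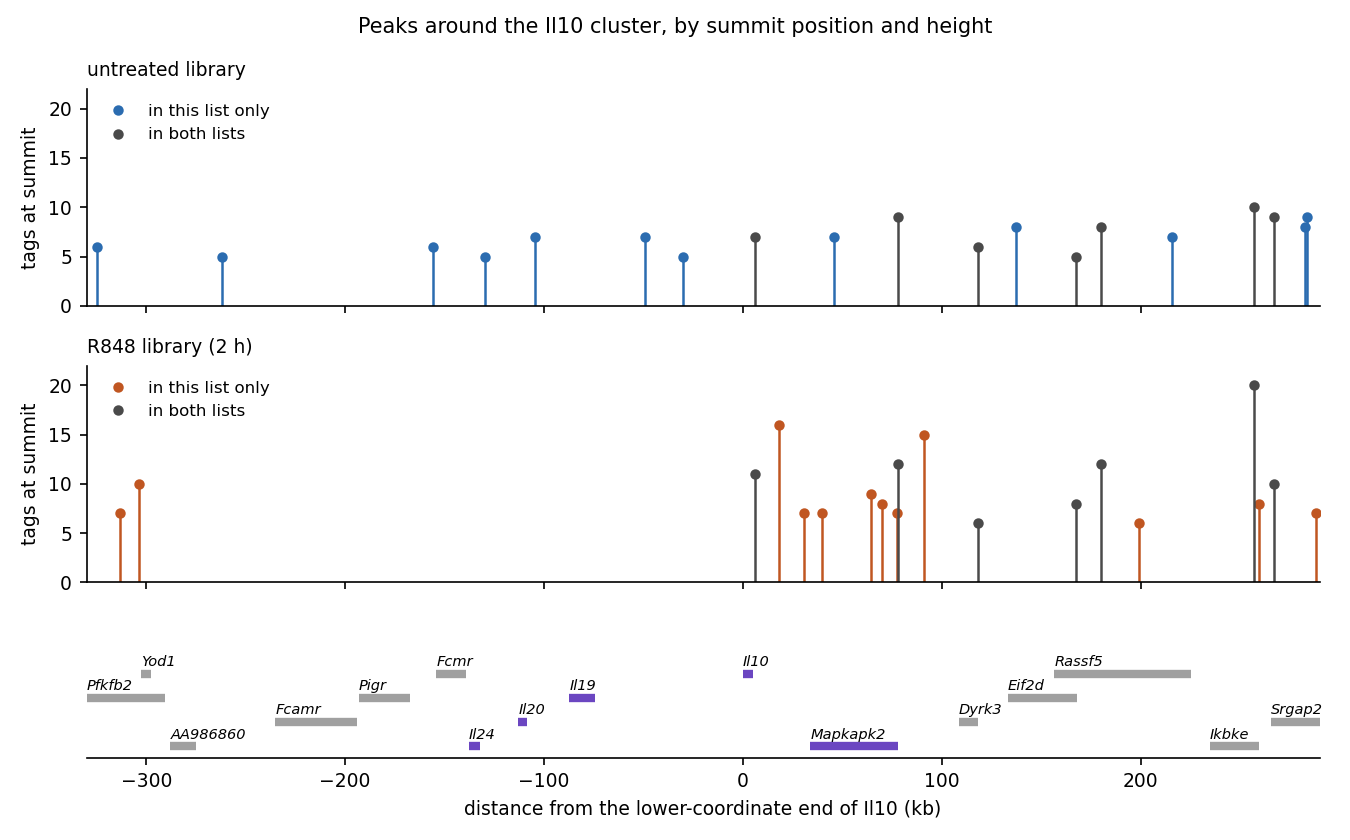
Summits of all peaks by distance from the lower-coordinate end of Il10 (x axis, kb), with the tags at each summit (y axis) in the untreated and the R848 library, and protein-coding genes below (members in purple). No R848 peak lies over Il24, Il20 or Il19, and the tallest of the members' R848 peaks hold 16 and 15 tags on either side of Mapkapk2.

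Il10 had 2 peaks in each list. One site was present in both, beyond the higher-coordinate end of the gene, which is its 3′ side, since Il10 is known to be read toward Mapkapk2. In the untreated library this peak (chr1:131025736-131026020) had its summit 891 bp past the gene, 7 tags, and a fold enrichment of 4.06 over the background of that library. In the R848 library (chr1:131025807-131026168) the summit lay 1009 bp past the gene, with 11 tags and a fold of 4.92. The 2 peaks shared 214 bp and their summits were 118 bp apart, and 33.1% of 11493 one-to-one pairs of overlapping peaks in the whole data had summits at least this far apart. Tags are the pileup at the summit, recovered from the fold and p-value that the authors' peak caller wrote, and the fold ranks peaks within 1 list. The untreated peak's fold exceeded that of 69.6% of its list and the R848 peak's that of 81.0% of its list, and ranks in lists of different length show no change.

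The other Il10 peaks were each in 1 list. The R848-only peak (chr1:131038027-131038384) lay 13243 bp past the same end, in the 28.7 kb between Il10 and Mapkapk2. That is near the middle of the stretch, so its count for Il10 rests on the nearest-end rule. The peak held 16 tags against a background of 1.36. Its tags, its fold of 7.21 and its −log10 q of 9.15 were the highest of the cluster's 9 R848 peaks. Of 22724 R848-only peaks more than 1 kb from a gene end, 0.651% had a fold at least as high. Its fold exceeded that of 92.8% of the whole R848 list. The nearest untreated peak was 12007 bp away. The untreated-only peak (chr1:130989529-130989728) lay 30303 bp before the lower-coordinate end of Il10, with 5 tags, a fold of 3.05 and a −log10 q of 0.783. No summit of either list lay inside the Il10 gene (chr1:131019845-131024970), and the summits nearest to its lower-coordinate end, where its transcript starts, were those 6016 bp above and 30303 bp below that end in the untreated list.

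Mapkapk2 had most of the cluster's R848 peaks, 7 against 2 in the untreated list. At least 6 R848-only peaks, the number at Mapkapk2, were assigned to 275 of the 21887 protein-coding genes (1.26%), and 41 of these, Mapkapk2 included, had no more than 1 untreated-only peak. At least 1 R848-only peak, the number at Il10, was assigned to 47.2% of genes. At least 1 untreated-only peak was assigned to 56.9% of genes, and each of the 5 members had exactly 1. Of the R848-only peaks at Mapkapk2, 2 were left when both lists were limited to a −log10 q of 2 or more, and 1 with a limit of 5, and the R848-only peak of Il10 was kept under both limits.

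The promoter of Mapkapk2, printed above, carried the site that both libraries had. In the untreated library the peak (chr1:131097694-131097928) had 9 tags and a fold of 5.08, with its summit 73 bp after the transcript start. In the R848 library the peak (chr1:131097544-131098163) was 620 bp wide against 235 bp, had 12 tags and a fold of 4.33, and had its summit 75 bp before the start. The untreated peak lay wholly within the R848 peak. The summits were 148 bp apart, a distance reached by 25.0% of the one-to-one pairs.

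The strongest R848-only peak at Mapkapk2 (chr1:131110676-131111173) lay 12979 bp upstream of the gene, with 15 tags, a fold of 6.78 and a −log10 q of 8.12. Of the R848-only peaks more than 1 kb from a gene end, 0.968% had a fold at least as high. Its fold exceeded that of 91.3% of the whole R848 list. It lay 1945 bp from the lncRNA gene Gm51643, and the nearest untreated peak was 12748 bp away. Thus the 2 tallest of the cluster's R848 peaks were both R848-only, and they lay outside genes on opposite sides of Mapkapk2.

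The other 5 R848-only peaks at Mapkapk2 were weaker, with 7 to 9 tags. The tallest (chr1:131084167-131084683) lay inside the gene, 13365 bp from its higher-coordinate end, which is its 5′ end, and had 9 tags and a fold of 4.07. Inside the gene there were also peaks 7912 bp from the 5′ end, with 8 tags and a fold of 3.19, and 6157 bp from the 3′ end, with 7 tags and a fold of 3.13. A peak 682 bp inside the 5′ end (chr1:131096975-131097201) had 7 tags and the lowest fold, 2.42, and was 493 bp from the untreated promoter peak. The last lay outside, 2902 bp past the 3′ end toward Il10, with 7 tags and a fold of 2.84. Folds below these were found for 1.08% to 67.7% of the R848 list, so that these 5 reach from the bottom of the list to its upper part. The untreated-only peak of Mapkapk2 (chr1:131065749-131065948) was inside the gene, 12075 bp from its 3′ end, with 7 tags and a fold of 4.06. The gene table gives gene ends without exons, so exons and introns were not told apart.

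**Figure D2:**
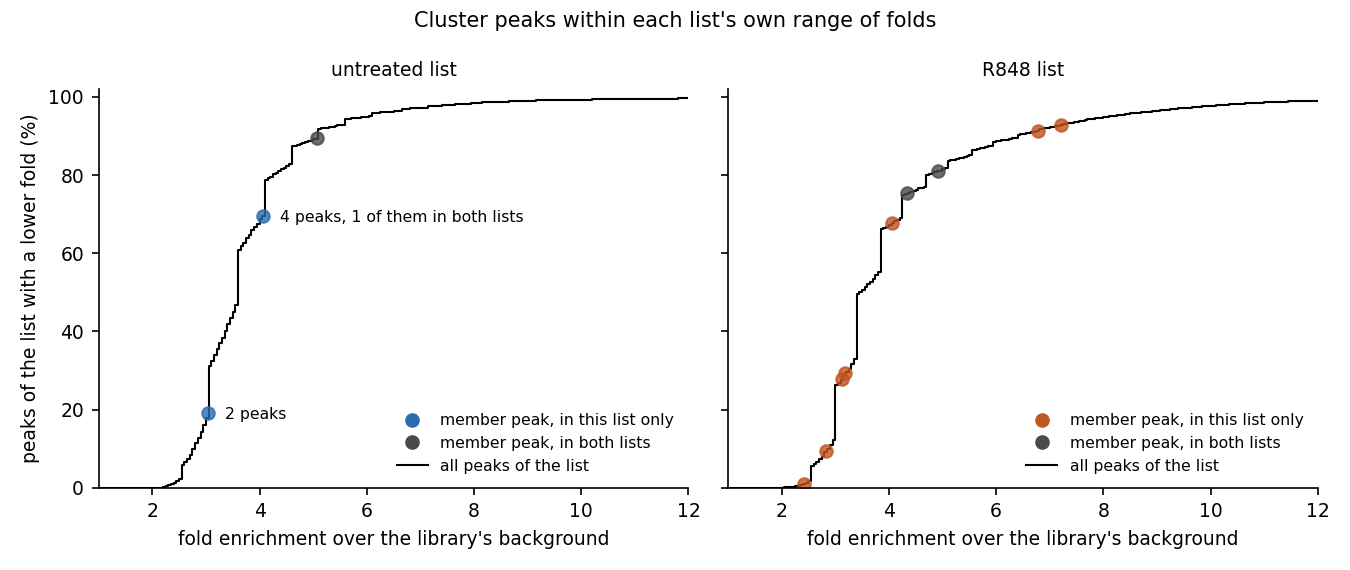
Cumulative share of peaks (y axis, % of the list with a lower fold) against fold enrichment (x axis, up to a fold of 12) in each list, with the members' peaks as points. The R848-only peaks at 7.21 and 6.78 lie above 92.8% and 91.3% of the R848 list, and the untreated peaks share 3 fold values.

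Il19, Il20 and Il24 had no R848 peak, and each had 1 untreated-only peak of 5 or 7 tags. Over all protein-coding genes, 47.2% had at least 1 R848-only peak and 34.4% at least 1 shared R848 peak. The share of genes with neither was not counted, so having none is not read as a result about these 3 genes. At Il20 the peak (chr1:130914607-130915266) lay 3776 bp upstream of the transcript start, with 7 tags, a fold of 4.06 and a −log10 q of 2.03. At Il19 (chr1:130970648-130970892) it lay 25345 bp from the higher-coordinate end, within the lncRNA gene Gm41952, also with 7 tags. At Il24 (chr1:130890153-130890352) it lay 2761 bp from the higher-coordinate end, with 5 tags, a fold of 3.05 and a −log10 q of 0.783. None of the 3 lay inside its gene. The nearest R848 peaks were 135455 bp away from the Il24 peak, 110541 bp from the Il20 peak and 54915 bp from the Il19 peak.

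These 3 genes stood in a 310 kb stretch without an R848 peak (chr1:130716011-131025806), which ended at the shared site past Il10. It held 6 untreated peaks of 5 to 7 tags, 4 of them at members. Of 36702 stretches between neighbouring R848 peaks on autosomes, 2.29% were at least as long, and these made up 14.7% of the length between peaks. The untreated list had 1.94 peaks per 100 kb within this stretch and 2.39 over all stretches of that length or more. On the other side, 9 R848 peaks lay within 85.4 kb (chr1:131025807-131111173), where the untreated list had 3. Of 37725 windows of that length that begin at an R848 peak, 1.54% held at least 9, and the median held 2. The length was set by the first and last of these 9 peaks themselves, so this share does not measure how rare the grouping is. Of the 9 peaks, 5 had a −log10 q of at least 2.

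Depth limits how far the lists can be compared. No read totals were used. The background that the folds imply genome-wide was 0.968 tags for untreated cells and 1.36 tags after R848. Their ratio of 1.40 measures relative depth if reads were extended alike in both libraries. The smallest pileup of any listed peak was 4 tags in the untreated and 5 in the R848 list. Scaled by that ratio to the untreated depth, the R848-only peak past Il10 came to 11.4 tags (95% exact Poisson interval 6.51 to 18.5) and the one upstream of Mapkapk2 to 10.7 (5.98 to 17.6). Both intervals lay above the 4 tags at which the untreated list begins. For the other 5 of the 7 R848-only peaks the interval included 4 tags. For all 5 untreated-only peaks, the interval scaled to the R848 depth included 5 tags, as for Il20 with 9.83 (3.95 to 20.2) and for Il24 with 7.02 (2.28 to 16.4). At these 10 sites the intervals therefore give no ground to call a difference between the libraries. The smallest pileup is that of the whole list, not a count at the site, and a higher local background raises the tags needed. An interval above it thus shows no difference either, and none was tested. The intervals cover counting error only, not variation between cultures.

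**Figure D3:**
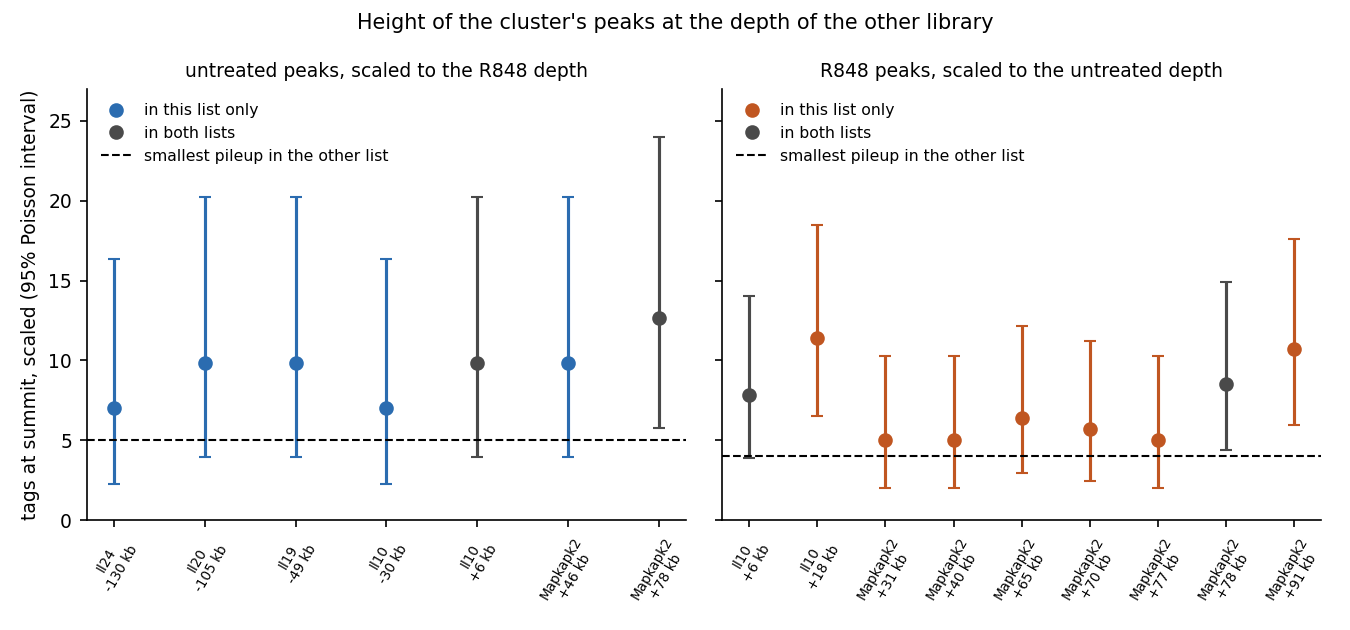
Tags at the summit of each member peak, scaled to the depth of the other library (y axis, with 95% Poisson intervals), labelled by gene and by distance from the lower-coordinate end of Il10. The dashed line is the smallest pileup of the other list, and among peaks found in 1 list the interval stays above it at +18 kb (Il10) and +91 kb (Mapkapk2) in the R848 list.

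The peak caller also sets a local background for each peak. It was the genome-wide value for all 7 untreated peaks, against 47.0% of the whole untreated list. In the whole R848 list 55.7% of peaks had the genome-wide value of 1.359 tags. Of the 9 R848 peaks of the cluster, the one past Il10 had 1.359 and the one upstream of Mapkapk2 1.360. The latter falls outside the tolerance used for the whole list. For the other 7 the local background was 1.44 to 2.30 tags, with the highest value beside the Mapkapk2 promoter. A higher local background lowers the fold of a peak, as at the promoter of Mapkapk2, where 12 tags over 2.00 gave a fold of 4.33.

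Genes within 300 kb of the cluster were described in the same way. Below the cluster, Fcmr, which encodes an Fc receptor for IgM, had 1 untreated-only peak and no R848 peak. Fcamr and Pigr, which encode other receptors for immunoglobulins, had no peak. Yod1 had 2 R848-only peaks and no untreated peak, and Zp3r had 8 untreated-only peaks and no R848 peak. C4bp had no peak, and Pfkfb2 and AA986860 had 2 and 1 untreated-only peaks. Above the cluster, Dyrk3, a kinase gene, had 1 peak in each list at the same site. Eif2d, which encodes a translation initiation factor, had 2 R848 peaks, both shared, and 1 untreated-only peak. Ikbke, which encodes an IKK-related kinase of the interferon response, had 1 shared and 1 R848-only peak. Rassf5 had 1 R848-only and 1 untreated-only peak, and Srgap2 had 4 and 5. Within this neighbourhood Mapkapk2 had the most R848-only peaks, as the plot of peaks per gene shows.

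**Figure D4:**
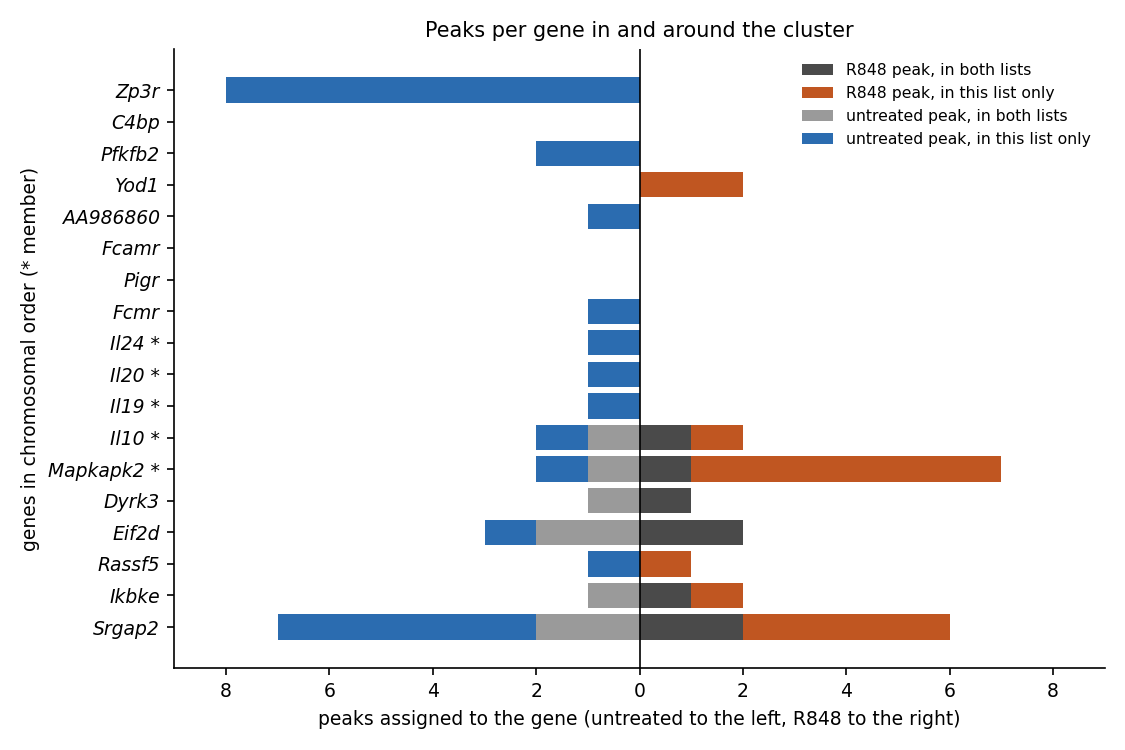
Number of peaks assigned to each gene within 300 kb of the cluster, in chromosomal order, with untreated peaks to the left and R848 peaks to the right of 0 and members marked by an asterisk. Mapkapk2 has 6 R848-only peaks, Srgap2 4 and Yod1 2, and the genes from AA986860 to Il19 have no R848 peak.

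The genes most like Il10 in this measure were sought over both libraries. The same counts (1 R848-only, 1 shared R848 and 1 untreated-only peak) were found for 338 other genes, whose strongest R848-only peak had a median fold of 3.39. At least the fold of Il10 was reached by 4 of the 338. The closest in fold were Mogat1 (7.21), Btbd10 and Naaa (6.88 each), Ing4 (7.56) and G3bp2 (6.78).

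Genes that act with the members were described from lists, and their counts are set beside those of all genes, of which 47.2% had an R848-only and 56.9% an untreated-only peak, with a median of 0 R848-only peaks per gene. In untreated-only peaks the lists of 18 genes are near that share. Of 18 genes of IL-10 family receptors and signalling, 12 had an R848-only peak and 11 an untreated-only peak, with a median of 1 R848-only peak. Il10ra, the ligand-binding chain of the IL-10 receptor, had 1 R848-only peak and no untreated peak. Il20rb, a receptor chain for the IL-19, IL-20 and IL-24 proteins, had 5 R848-only peaks beside 4 untreated-only peaks, while its partner Il20ra had 1 beside 11. Nfil3, a transcription factor gene induced by IL-10, had 2 and 0. Il22ra1, the other receptor chain for IL-20 and IL-24, had no R848 peak.

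Of 18 genes of the p38 and MK2 pathway and its mRNA targets, 15 had an R848-only peak and 9 an untreated-only peak. The shares of all genes were 47.2% and 56.9%. The median of this list was 1 R848-only peak. Mapk14, which encodes p38 alpha, the kinase that activates MK2, had 1 of each. Mapkapk3, the closest relative of Mapkapk2, had 1 R848-only and no untreated-only peak. Zfp36, which encodes the mRNA-destabilising protein that MK2 phosphorylates, had 2 and 0, and its relative Zfp36l2 had 10 and 7. Hspb1, the gene of a heat shock protein phosphorylated by MK2, had no peak. Il6 and Elavl1 of this list had no R848-only peak, and 5 and 1 untreated-only peaks. Summed over the 18 genes there were 34 R848-only and 23 untreated-only peaks. Of 21 genes of factors known to act on Il10 in macrophages, 13 had an R848-only peak and 15 an untreated-only peak, against the same 47.2% and 56.9%. Their median was 2 R848-only peaks. Maf, a transcription factor that activates Il10, had 3 R848-only and 8 untreated-only peaks. Creb1 and Crem, which encode cAMP-responsive factors, had no R848-only peak and 3 and 4 untreated-only peaks. Prdm1, the gene of the repressor Blimp-1, had 2 R848-only and 3 untreated-only peaks. Other genes of this list went the other way, such as Cebpb with 8 R848-only and 3 untreated-only peaks, Atf3 with 5 and 2, and Fos with 3 and 1. Summed over the 21 genes there were 36 R848-only and 39 untreated-only peaks.

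Markers of cell types were read the same way. A peak in at least 1 list was found at 10 of 10 macrophage, 5 of 8 T cell, 6 of 6 B cell, 5 of 6 neutrophil, 5 of 6 dendritic cell and 3 of 5 keratinocyte markers, against 80.2% of all genes. An R848 peak shared with the untreated list was found at 34.4% of all genes and at 8 of 10 macrophage, 3 of 8 T cell, 0 of 6 B cell, 1 of 6 neutrophil, 3 of 6 dendritic cell and 0 of 5 keratinocyte markers. The markers with no peak in either list were Cd3e, Cd3g and Lck of T cells, Elane of neutrophils, Zbtb46 of dendritic cells, and Krt14 and Krt10 of keratinocytes. R848-only peaks, found at 47.2% of all genes, lay at 8 of 10 macrophage, 1 of 8 T cell, 5 of 6 B cell, 3 of 6 neutrophil, 5 of 6 dendritic cell and 1 of 5 keratinocyte markers. Summed untreated and R848 peaks were 30 and 22 for macrophage, 14 and 6 for T cell, 10 and 7 for B cell, 7 and 4 for neutrophil, 12 and 19 for dendritic cell, and 6 and 1 for keratinocyte markers. Their part in the values at the cluster was not tested.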

How the data were processed

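ATAC-seq was done on 1 untreated and 1 R848 library, amplified for 15 PCR cycles per the labels' protocols. Reads were handled with bcl2fastq 2.19, Bowtie2 2.2.6 and MACS2 2.2.7.1 on mm10, per the submitters' processing notes. For read filters, duplicate handling, insertion shifts and pooling, the settings are not given in the sources used here. Deposited peak lists give for each peak a fold over the library's own background as a linear ratio, a −log10 p and a −log10 q, and a score that was not used. No q filter was seen in the deposited lists, where q was above 0.05 for 36.5% of peaks from untreated cells and 48.2% from R848 cells.

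Pileup (tags) and background were solved from fold = (tags + 1)/(background + 1) and a Poisson tail, to within 0.1% of the deposited −log10 p, for 99.9% of untreated and 99.8% of R848 peaks. Positions are 1-based. Overlap was at least 1 bp. Gene ends came from RefSeq (GRCm38.p6, protein-coding entries). The routines were tested on simulated data. Computations used scipy 1.17.1, pandas 2.3.3 and numpy 2.4.6 under Python 3.11.15, and plots matplotlib 3.10.9. All members and neighbours within 300 kb were named by rule. The lists were fixed, but the genes named from the pathway lists are examples, and no rule set which of them are named. Likeness to Il10 meant equal peak counts, then closeness of the strongest R848-only fold. The members and lists were chosen with earlier results of these data known. From the list of factors that act on Il10, 1 gene was left out and is not reported here. Peak sequences were not analysed here.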

Additional observations from a re-analysis of the deposited data

How the results depend on the processing

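Under 8 alternatives, the 7 R848-only peaks of the cluster became 3 with both lists limited to a −log10 q of 2 or more, 2 with a limit of 5, and 4 with assignment by gene body, in which a peak counts for the gene around its summit. The 5 untreated-only peaks became 3 with the limit of 2, with lists of equal length and with gene ends within 20 kb, 0 with the limit of 5 and 1 by gene body. The 2 R848 peaks that overlap an untreated peak became 0 with the limit of 5 and 0 by gene body, and the 2 untreated peaks that overlap an R848 peak became 0 and 1. These settings keep fewer peaks by construction. The other 20 of 32 cluster counts, which include all those with an overlap of at least 50% of the smaller peak or a gap of up to 500 bp, stayed within 1.5 times. Il10 had 0 R848-only peaks by gene body and 3 with every gene within 50 kb, and Mapkapk2 had 2 and 1 at the lower and higher q limit. The count of R848-only peaks at Il19, Il20 and Il24 was 0 under every alternative, but this was fixed in advance. The 310 kb stretch without an R848 peak reaches more than 50 kb beyond these genes on both sides. No setting could therefore give another count. Ties at the length limit involved no member. No paired analysis was possible because each group had 1 library. For 5 of 7 R848-only and all 5 untreated-only peaks, the counting interval scaled to the depth of the other library reached the smallest pileup listed there.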
